A study of Mus musculus with 4 samples.

Results

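The bone morphogenetic protein (BMP) response and its main effectors, the inhibitors of differentiation, were followed through 10 genes: the ID genes Id1, Id2, Id3 and Id4, the inhibitory SMAD genes Smad6 and Smad7, the ligand gene Bmp4, the receptor gene Bmpr1a, and Grem1 and Nog, which encode the secreted antagonists gremlin 1 and noggin. The genes were chosen by name, and every probe set annotated to them alone was read, which gave 20 of 45101 probe sets and 10 of 18193 genes. Total RNA of mouse cells was hybridized to 4 Affymetrix Mouse Genome 430 2.0 arrays, a 1-colour platform, with 1 array for each cell population. The populations were induced neural stem cells made with 14 factors (iNSC_14F) and with 13 factors (iNSC_13F), primary-derived neural stem cells (NSC) and mouse embryonic fibroblasts (MEF). The series concerns liver cells and B lymphocytes of adult mice as starting cells, but the labels give neither the starting cell of an induced sample nor the names of its factors, and no strain, age or passage. NSC and both induced populations were grown in N2 medium with epidermal growth factor, basic fibroblast growth factor and laminin. No growth condition of the MEF was found in the labels, so the population and its medium cannot be told apart. The source label calls all 4 samples embryonic stem cells, against their cell type labels, and all 6 embryonic stem cell markers tested were below the floor on every array.

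BMP ligands bind pairs of type 1 and type 2 receptor kinases, which phosphorylate the transducers SMAD1, SMAD5 and SMAD9, and these enter the nucleus with SMAD4. The ID genes and the inhibitory SMAD genes are among the direct targets, and SMAD6 and SMAD7 act back on the receptors and transducers, so their transcripts are often read as a measure of pathway activity. ID proteins carry a helix-loop-helix domain without a DNA-binding region and hold E proteins, the common partners of lineage-specific factors, away from DNA. In neural progenitors BMP signals restrain neurons and oligodendrocytes and favour astrocytes and quiescence, while noggin and gremlin keep the ligand from its receptors.

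The proximal promoters of Id2 and Id3, whose brightest probe sets had a high signal on all 4 arrays, and of Id4 and Smad6, which were bright in MEF alone, are shown to set the genes' upstream sequence beside their different patterns. Each is the 250 bases before the annotated start from RefSeq (build GRCm38.p6), 5′ to 3′ on the strand of the gene, and capitals mark GGCGCC and GGAGCC or their reverse complements, motifs of the GC-rich kind described for SMAD1 and SMAD5 binding. Id2 lies at chr12:25096093-25096342 (minus strand), Id3 at chr4:136143572-136143821 (plus), Id4 at chr13:48260866-48261115 (plus) and Smad6 at chr9:64022060-64022309 (minus).
Id2: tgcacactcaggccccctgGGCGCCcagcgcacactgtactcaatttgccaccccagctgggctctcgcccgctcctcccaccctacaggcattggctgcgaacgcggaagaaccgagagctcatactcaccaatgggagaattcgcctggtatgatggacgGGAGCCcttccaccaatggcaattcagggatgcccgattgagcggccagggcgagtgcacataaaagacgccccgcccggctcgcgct
Id3: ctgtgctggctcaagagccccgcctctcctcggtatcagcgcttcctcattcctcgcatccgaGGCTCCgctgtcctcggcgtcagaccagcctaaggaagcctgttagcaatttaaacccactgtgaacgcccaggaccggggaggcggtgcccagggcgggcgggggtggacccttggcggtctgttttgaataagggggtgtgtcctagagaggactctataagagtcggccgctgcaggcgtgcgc
Id4: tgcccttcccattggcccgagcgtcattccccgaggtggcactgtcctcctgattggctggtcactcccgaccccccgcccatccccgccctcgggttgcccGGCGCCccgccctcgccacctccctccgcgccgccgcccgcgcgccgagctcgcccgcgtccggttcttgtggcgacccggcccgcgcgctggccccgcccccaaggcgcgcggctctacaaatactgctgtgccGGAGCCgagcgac
Smad6: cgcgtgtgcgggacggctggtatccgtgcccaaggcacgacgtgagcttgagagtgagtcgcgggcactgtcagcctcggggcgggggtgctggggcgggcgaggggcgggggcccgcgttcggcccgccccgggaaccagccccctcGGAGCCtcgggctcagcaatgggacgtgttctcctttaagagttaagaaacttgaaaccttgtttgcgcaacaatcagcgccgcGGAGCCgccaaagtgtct

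Within these windows each motif searched was found in genes of more than 1 expression pattern. No promoter of Id1, Smad7 or Nog was used, and whether the motifs follow expression was not tested. GGCGCC, searched on both strands of the 250 bases, was found in 4 of the 7 genes with a promoter used here, Id2, Id4, Bmpr1a and Grem1, and in 9.59% of 32851 mouse promoters of that length. Id2, with a signal in all 4 populations, and Id4, with a high signal in MEF alone, each held 1 copy, while Id3 and Smad6 held 0. GGAGCC was found in 5 of the 7, with 2 copies in Smad6 and 1 each in Id2, Id3, Id4 and Bmp4, and in 26.0% of all promoters. GTCTG, which holds the short SMAD-binding element, was found in 2 of the 7, with 2 copies in Id3 and 1 in Grem1, against 42.2% of all promoters. No copy of GGCGCC overlapped one of GGAGCC. The 7 promoters had 62.8% to 78.8% G and C, above the median of 52.4% for all promoters, and among the 9178 promoters with at least 60% G and C the share with GGCGCC was 26.1%. The share with GGAGCC or GTCTG among those GC-rich promoters was not counted, so their shares of all promoters are not matched for G and C. A match of letters is a description of the window and does not show that a factor binds there.

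Values are MAS5 signals, a linear brightness for each probe set. A floor of 103.91 was taken from probe sets of odorant, vomeronasal and taste receptors, and where 1 array of a pair lay at or under it the fold is only a lower bound, written "at least". A gene is given by its brightest probe set, and for the 10 genes the others are described beside it. With 1 array in each group no difference has a replicate check, so no error, test or p-value can be given, and signals of different probe sets are not compared with each other. As a yardstick, 95% of the 9311 genes above the floor on both induced arrays differed by less than 2.32-fold between them, a spread that holds real differences as well as noise. The median difference of all measured genes was near 0 (log2) in comparisons with MEF (-0.01 to 0.10), but 0.33 for iNSC_14F and 0.30 for iNSC_13F against NSC. The hybridization controls, which are spiked-in foreign transcripts, were 1.91-fold, 2.11-fold and 1.88-fold higher on the iNSC_14F, iNSC_13F and MEF arrays than on the NSC array. When arrays were scaled to these controls, the medians against NSC were -0.51 and -0.65, and that of NSC against MEF was 0.82. For Id1, Id2, Id3, Smad7 and Bmpr1a the differences from NSC are therefore also given with this scaling, and other small differences from NSC rest on the deposited scale unless it is named. The cell type labels fitted the neural stem cell and fibroblast markers tested. On iNSC_14F, iNSC_13F and NSC, 8, 8 and 9 of 9 neural stem cell markers were above the floor, against 3 in MEF. Of 9 fibroblast markers 3, 4 and 1 were, against 8 in MEF. Sox1, a marker of early neural progenitors, was the neural stem cell marker below the floor on both induced arrays. Neuron markers did not separate the neural populations from MEF. Of 5 such markers 2, 3 and 1 were above the floor on iNSC_14F, iNSC_13F and NSC, against 3 in MEF. Stmn2 (2770) and Tubb3 (990) were highest in MEF, and Map2 (9803) in NSC. No marker of hepatocytes (5) or B lymphocytes (5) was above the floor on any array.

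**Figure D1:**
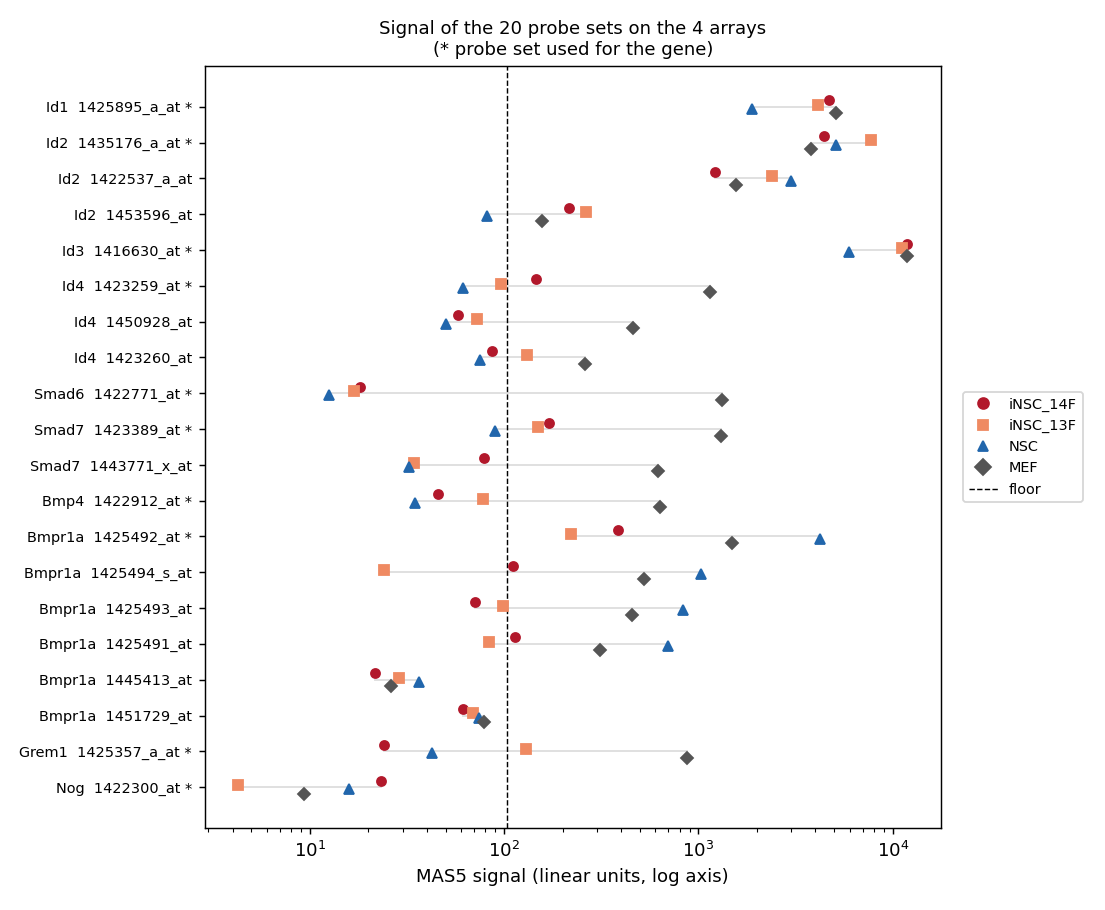
MAS5 signal (log axis) of each of the 20 probe sets on the iNSC_14F, iNSC_13F, NSC and MEF arrays, 1 point per array, with the floor of 103.91 as a dashed line and the probe set used for each gene marked by an asterisk. Id1, Id2 and Id3 have a probe set of at least 1893 on every array, the probe sets of Id4, Smad6, Smad7, Bmp4 and Grem1 are highest in MEF, the 4 brighter probe sets of Bmpr1a are highest in NSC, and Nog lies below the floor throughout.

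The 10 genes fell into 3 patterns and a gene without a signal. Id1, Id2 and Id3 were bright on all 4 arrays. Id4, Smad6, Smad7, Bmp4 and Grem1 were bright in MEF and near or below the floor elsewhere. Bmpr1a was high in NSC, lower in MEF and lowest in the induced cells. Of the 20 probe sets, 5 were above the floor on all 4 arrays, 12 on some and 3 on none, and 10, 9, 8 and 17 were above it on iNSC_14F, iNSC_13F, NSC and MEF.

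Id1, the ID gene most often used as a readout of BMP signalling, had signals of 4710 in iNSC_14F, 4124 in iNSC_13F, 1893 in NSC and 5118 in MEF. Both induced populations stood next to MEF, with NSC alone low. The induced cells were 2.49-fold (iNSC_14F) and 2.18-fold (iNSC_13F) higher than NSC, and 1.09-fold and 1.24-fold lower than MEF. Beside the yardstick of 2.32-fold, the difference of iNSC_14F from NSC lay just past it and that of iNSC_13F inside it. NSC was 2.70-fold lower than MEF. The contrast with NSC depended on the scaling. Scaled to hybridization controls, the log2 differences against NSC were 0.38 and 0.05 in place of 1.32 and 1.12, and that of NSC against MEF was -0.53 in place of -1.44.

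Id3, which is commonly induced together with Id1, gave the same order of arrays. Its signals were 11787 in iNSC_14F, 11113 in iNSC_13F, 5937 in NSC and 11906 in MEF. The induced cells differed from MEF by 1.01-fold and 1.07-fold, well inside the yardstick. They were 1.99-fold and 1.87-fold higher than NSC, just under the 2-fold line, and NSC was 2.01-fold lower than MEF, just past it. With scaling to the controls these log2 differences of 0.99, 0.90 and -1.004 were 0.06, -0.17 and -0.10.

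Id2, an ID gene found in neural progenitors and in many proliferating cells, differed more between the induced populations than Id1 and Id3 did. The brightest probe set read 4423 in iNSC_14F, 7692 in iNSC_13F, 5101 in NSC and 3815 in MEF. iNSC_14F was 1.74-fold lower than iNSC_13F, which is inside the yardstick, although 4.68% of 9311 genes had a lower difference. The probe set 1422537_a_at went the same way, at 1219 in iNSC_14F and 2381 in iNSC_13F, with 3010 in NSC and 1559 in MEF. The dim probe set 1453596_at read 216 in iNSC_14F and 263 in iNSC_13F, with 81.7 in NSC and 156 in MEF. All 3 probe sets were thus lower in iNSC_14F than in iNSC_13F, by 1.22-fold to 1.95-fold, but they ordered the induced cells and NSC differently. The log2 difference of iNSC_13F against NSC also turned with the scaling, to -0.48 with the controls in place of 0.59. iNSC_13F was 2.02-fold higher than MEF with the brightest probe set and 1.53-fold and 1.69-fold with the others.

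Id4, which acts in neural stem cells of the brain and is expressed in astrocytes, departed from the other ID genes. Its brightest probe set read 146 in iNSC_14F, 96.6 in iNSC_13F and 61.7 in NSC, against 1152 in MEF. MEF stood apart from the 3 neural populations, which lay at or near the floor. Id4 was 7.91-fold lower than MEF in iNSC_14F, and for iNSC_13F and NSC the bound was at least 11.1-fold. The probe set 1450928_at gave 57.7 in iNSC_14F, 72.6 in iNSC_13F and 50.1 in NSC, against 458 in MEF, and 1423260_at gave 86.6, 131 and 75.2 against 260.0. MEF was thus highest for all 3 probe sets. Between iNSC_14F and iNSC_13F they did not settle an order, since 1423259_at was higher in iNSC_14F and 1423260_at higher in iNSC_13F, both by bounds.

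Smad6, whose product blocks the BMP transducers and is itself induced by BMP, was above the floor in MEF alone. It read 18.1 in iNSC_14F, 16.9 in iNSC_13F and 12.5 in NSC, against 1326 in MEF. The 3 neural populations could not be ordered, as all lay below the floor, and each was at least 12.8-fold lower than MEF. Smad7, which inhibits both the BMP and the TGF-beta branch, read 171 in iNSC_14F, 149 in iNSC_13F and 89.5 in NSC, against 1312 in MEF. Against MEF it was 7.66-fold lower in iNSC_14F, 8.80-fold lower in iNSC_13F and, as a bound, at least 12.6-fold lower in NSC. Here the induced cells kept a weak signal above the floor and NSC did not. The other probe set of Smad7 read 78.9, 34.5 and 32.3 in the same 3 populations, against 620 in MEF, so that only MEF was above the floor. Against NSC, Smad7 was at least 1.65-fold higher in iNSC_14F and at least 1.43-fold higher in iNSC_13F, and with scaling to the controls these log2 differences of 0.72 and 0.52 were 0.00 and -0.34.

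Bmp4, a ligand of the pathway that drives astrocyte formation from neural progenitors, followed Smad6. Its signal was 45.6 in iNSC_14F, 78.3 in iNSC_13F and 34.9 in NSC, against 633 in MEF, and each neural population was at least 6.10-fold lower than MEF. Grem1, the secreted antagonist that binds BMP2, BMP4 and BMP7, read 24.0 in iNSC_14F, 129 in iNSC_13F and 42.3 in NSC, against 874 in MEF. iNSC_13F was the neural population with a signal above the floor, by a small margin, and was 6.77-fold lower than MEF, while iNSC_14F and NSC were at least 8.42-fold lower. Nog, the antagonist that marks the neural stem cell niche and is made there by other cells, read 23.2 in iNSC_14F, 4.27 in iNSC_13F, 15.8 in NSC and 9.34 in MEF. Its single probe set lay below the floor on every array, so no fold can be given. Ligand and secreted antagonist were thus both highest in the fibroblasts for the pair Bmp4 and Grem1. These are RNA levels of whole populations, in which fewer cells of a type and less RNA per cell cannot be told apart.

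Bmpr1a, which encodes a type 1 receptor for BMP2 and BMP4, was the member that separated the induced cells from both references. Its brightest probe set read 383 in iNSC_14F, 221 in iNSC_13F, 4208 in NSC and 1497 in MEF. The induced cells were 10.98-fold (iNSC_14F) and 19.0-fold (iNSC_13F) lower than NSC, and 3.90-fold and 6.77-fold lower than MEF. NSC was 2.81-fold higher than MEF. Of the 8998 genes with a signal over the floor in both iNSC_14F and NSC, 1.46% had a lower difference than Bmpr1a, and of the 8838 for iNSC_13F and NSC 0.622% did. The probe set 1425494_s_at read 111 in iNSC_14F, 24.1 in iNSC_13F, 1028 in NSC and 527 in MEF. The probe set 1425493_at read 70.6, 99.1, 828 and 455 on the same arrays, and 1425491_at read 113, 83.5, 700.0 and 312. All 4 probe sets that were above the floor on any array were at least 2-fold lower on both induced arrays than in NSC and than in MEF, and these 4 share 1 source sequence in the annotation, so they are not independent readings. The remaining probe sets, 1451729_at, of that same source sequence, and 1445413_at were below the floor on every array. Scaling to the controls enlarged the log2 differences against NSC, to -4.39 in place of -3.46 for iNSC_14F and to -5.32 in place of -4.25 for iNSC_13F, and those against MEF were -1.99 and -2.93. With the median of the 6 probe sets they were -2.87 for both against NSC and -1.86 for both against MEF, bounds set by the floor.

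**Figure D2:**
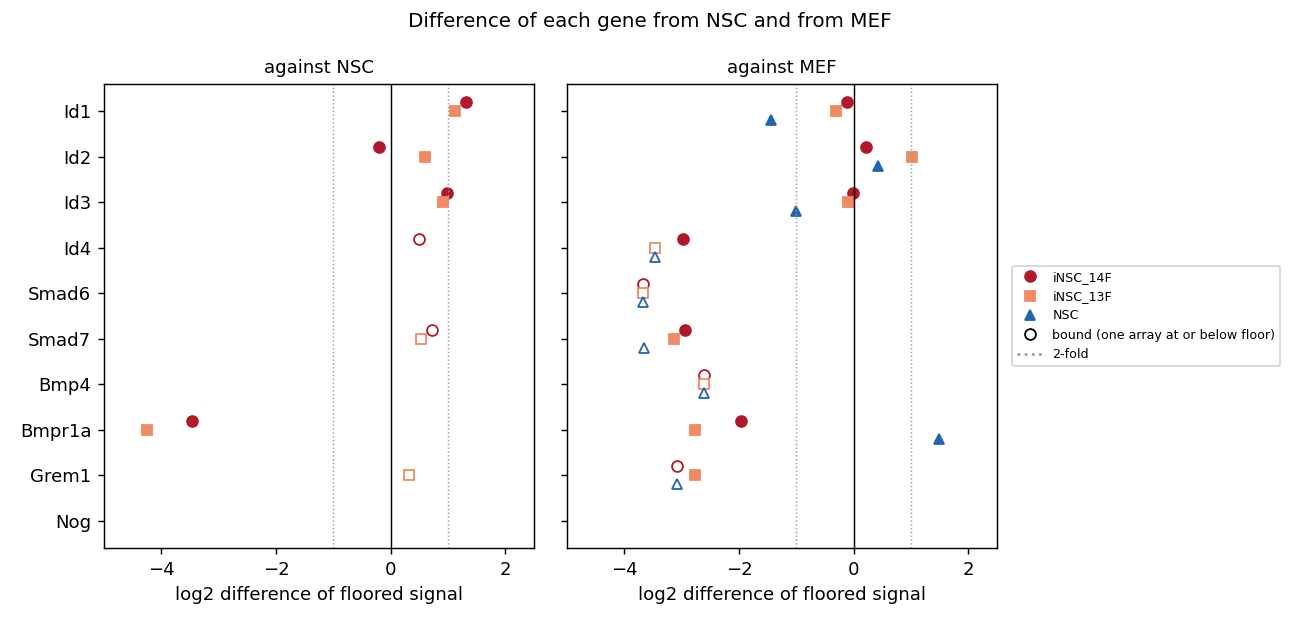
Log2 difference of floored signal for each of the 10 genes, with NSC as the baseline on the left and MEF on the right. Open symbols are bounds, dotted lines mark 2-fold, and a gene with neither array above the floor has no symbol. Bmpr1a lies at -3.46 and -4.25 against NSC, while Id1, Id2 and Id3 of the induced cells lie between -0.31 and 1.01 against MEF.

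Counted over the 10 genes, with 1 of them (Nog) never measured, 7 were at least 2-fold lower in NSC than in MEF and 1 was higher. Over all measured genes the shares were 17.5% and 19.9%. Of the 7, 5 rest on bounds. In iNSC_14F 6 members were lower than in MEF and 0 higher (19.0% and 18.0% of all measured genes). In iNSC_13F 6 were lower and 1, Id2, was higher (20.9% and 15.6%). The median log2 difference of the 9 measured members was -2.61 for iNSC_14F, -2.76 for iNSC_13F and -2.61 for NSC. These 3 comparisons share the MEF array, and 5 of the genes were measured mainly through their level in MEF, so the counts and medians describe the choice of genes as well as the cells. Against NSC 6 members were measured. Id1 was higher and Bmpr1a lower on each induced array, against 16.9% higher and 19.3% lower of all genes for iNSC_14F and 14.8% and 20.8% for iNSC_13F, which is near the background for so few genes. Between iNSC_14F and iNSC_13F 0 of 7 measured members were 2-fold apart, against 6.03% higher and 2.97% lower among all genes. Scaled to the controls, 5 members were lower and 2 higher in NSC than in MEF, and against NSC 2 were lower and 0 higher in iNSC_14F and 1 lower and 0 higher in iNSC_13F. The shares over all genes were not counted under this scaling. Its median log2 difference of all genes was 0.82 for NSC against MEF. Against NSC it was -0.51 for iNSC_14F and -0.65 for iNSC_13F.

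The patterns were compared as profiles, by the Euclidean distance between floored log2 signals centred on each gene's mean over the 4 arrays. Id1 and Id3 were 0.319 apart, Id4 and Smad7 0.372, and Bmp4 and Grem1 0.404. Id2 was 1.19 from Id3 and 1.49 from Id1. Id1 was 2.47 from Id4, so the 4 ID genes did not share a profile. Bmpr1a was at least 3.46 from each of the other 8 measured members. The genes outside the 10 nearest to Id1 were Mthfsd (0.00318), Flii (0.0317) and Fcgr2b (0.0378), those nearest to Id2 were Tada2b, Gpatch1 and Amer2, and those nearest to Id3 were Nme2, Ddt and Firre. Over 4 arrays such likeness is common: of 11778 genes compared, 430 lay within 0.5 of Id1, 525 of Id2 and 1047 of Id3. For the genes that were high in MEF the counts were 65 for Id4, 88 for Smad6, 139 for Bmp4 and 24 for Smad7. Smad6 and Bmp4 were at the floor on the 3 neural arrays, so their profiles rest on the MEF value alone, and their neighbours are genes with a like MEF signal that were also at the floor elsewhere. Nearest to Id4 were Denn2b (0.0821), Tmtc4 and Ak5, nearest to Smad6 were Lce1h, Rin1 and Tmem159, and nearest to Bmp4 were Capn6, Gstm2 and Birc3. Nearest to Smad7 were Ddit3 (0.292), Sparc (0.315) and Fst (0.327).

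The remaining BMP receptors and co-receptors were read to place Bmpr1a among its partners. Of the 10 other genes of that list, 3 were at least 2-fold lower and 4 higher in iNSC_14F than in NSC, among 9 measured, and 3 were lower and 1 higher in iNSC_13F, among 8. Over all genes 19.3% were lower and 16.9% higher in iNSC_14F, and 20.8% and 14.8% in iNSC_13F. Scaled to the controls the counts were 4 lower and 2 higher in iNSC_14F, and 4 lower and 0 higher in iNSC_13F. Shares over all genes were not counted under that scaling. Bmpr2, the type 2 receptor dedicated to BMPs, had signals of 483 in iNSC_14F, 344 in iNSC_13F, 4958 in NSC and 3133 in MEF. It was 10.3-fold and 14.4-fold lower in the induced cells than in NSC and 6.48-fold and 9.12-fold lower than in MEF. A dimmer probe set of Bmpr2 gave smaller differences and was highest in MEF, at 142 in iNSC_14F and 65.2 in iNSC_13F, with 182 in NSC and 215 in MEF.

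Acvr2a, a type 2 receptor shared with activin, read 142 in iNSC_14F, 77.4 in iNSC_13F, 1166 in NSC and 474 in MEF. Against NSC it was 8.22-fold lower in iNSC_14F, and at least 11.2-fold in iNSC_13F. Bmpr1b, the type 1 receptor closest to Bmpr1a, read 56.7 in iNSC_14F, 166 in iNSC_13F, 995 in NSC and 258 in MEF. It was at least 9.57-fold (iNSC_14F) and 6.002-fold (iNSC_13F) lower than in NSC, and its other 2 probe sets were below the floor throughout. A dimmer probe set of Acvr2a had another order, with 89.9 in iNSC_14F, 128 in iNSC_13F and 235 in NSC against 434 in MEF. By their brightest probe sets Bmpr1a, Bmpr1b, Bmpr2 and Acvr2a were thus all highest in NSC and lowest in the induced populations, while the dimmer ones of Bmpr2 and Acvr2a were highest in MEF and kept the induced cells below NSC. For the brightest probe sets of these BMP receptor genes this order also held under quantile normalization and under scaling to the controls. The order was not particular to BMP receptors. Tgfbr1, a receptor gene of the TGF-beta branch named after its values were seen, read 333 in iNSC_14F, 254 in iNSC_13F, 2128 in NSC and 1402 in MEF.

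Some of the other receptor genes were higher in induced cells than in NSC. Rgma, a BMP co-receptor with a part in axon guidance, read 629 in iNSC_14F, 227 in iNSC_13F, 150.1 in NSC and 108 in MEF, and was 4.19-fold higher in iNSC_14F than in NSC. The others of the 4 higher in iNSC_14F, named for that count, were Eng (at least 2.30-fold), Rgmb (2.14-fold) and Tgfbr3 (at least 3.33-fold). Acvr1, a further type 1 receptor, is named after its values were seen, as the other type 1 receptor with a bright signal. It read 1598 in iNSC_14F, 3266 in iNSC_13F, 821 in NSC and 3828 in MEF. With scaling to the controls its log2 difference against NSC was 0.03 for iNSC_14F, in place of 0.96, and 0.92 for iNSC_13F, in place of 1.99.

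**Figure D3:**
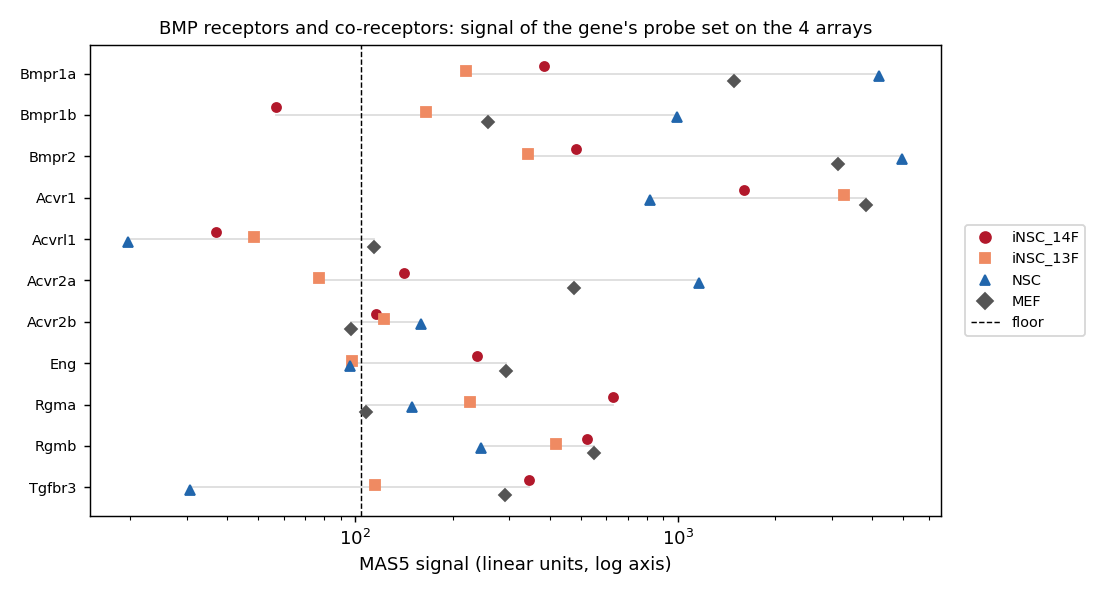
MAS5 signal (log axis) of the brightest probe set of Bmpr1a and of 10 other BMP receptor and co-receptor genes on the iNSC_14F, iNSC_13F, NSC and MEF arrays, with the floor as a dashed line. For Bmpr1a, Bmpr1b, Bmpr2 and Acvr2a the NSC point is the rightmost and the induced points lie to the left, while Acvr1 is lowest in NSC.

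Of the transducers between receptor and ID genes, Smad1 and Smad4 differed little by their brightest probe sets. These differed by at most 1.26-fold between any of the populations and NSC or MEF on the deposited scale. Their other probe sets differed more, though none by 2-fold. A dimmer one of Smad1 read 705 in iNSC_13F and 413 in NSC, and one of Smad4 read 4528 in iNSC_14F and 2704 in MEF. By its brightest probe set Smad1 read 4152 in iNSC_14F, 4272 in iNSC_13F, 3381 in NSC and 3688 in MEF, and Smad4 read 5494, 4913, 4712 and 4894. Smad5 was lower in MEF, at 2116 in iNSC_14F, 1388 in iNSC_13F and 2133 in NSC against 643 in MEF. It was 3.29-fold, 2.16-fold and 3.32-fold higher than in MEF, but 1 of its other 2 probe sets had MEF above iNSC_14F and NSC. Scaled to the controls, Smad5 was 3.23-fold, 1.92-fold and 6.22-fold higher than in MEF, and in iNSC_13F Smad4 and Smad5 were 2.02-fold and 3.24-fold lower than in NSC. Smad9 was below the floor on every array.

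Among 11 other ligand genes with a probe set, at most 4 were measured in any pair. Bmp7, a ligand made by neural and glial progenitors, was the ligand with a clear signal in neural cells, at 417 in iNSC_14F, 319 in iNSC_13F and 869 in NSC against 25.4 in MEF. It was at least 4.02-fold, 3.07-fold and 8.36-fold higher than in MEF. Bmp2 read 28.8 in iNSC_14F, 271 in iNSC_13F, 18.7 in NSC and 35.1 in MEF, so that iNSC_13F alone was above the floor. The ligands thus divided, with Bmp4 in MEF, Bmp7 in neural populations and Bmp2 in iNSC_13F.

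Secreted antagonists other than Grem1 and Nog were mostly lower than in MEF. Of 7 measured in iNSC_14F 5 were lower and 0 higher, of 8 in iNSC_13F 6 and 0, and of 8 in NSC 5 and 1, which was Chrdl1, at 77.2 in iNSC_14F, 75.01 in iNSC_13F and 547 in NSC against 45.1 in MEF. The shares of all genes lower than in MEF were 19.0%, 20.9% and 17.5%, and 18.0%, 15.6% and 19.9% were higher. Fstl1, a follistatin-like protein of mesenchyme, read 1894 in iNSC_14F, 1201 in iNSC_13F and 925 in NSC against 25328 in MEF. Fst, which encodes follistatin, a trap for activins and some BMPs, read 226, 191 and 140.1 against 2236. Nbl1 stood above the floor in the induced cells, at 305 in iNSC_14F and 273 in iNSC_13F, against 67.7 in NSC and 673 in MEF. Fstl3 was above the floor in MEF alone (717).

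Inhibitors inside the cell went both ways. Bambi, a decoy receptor that is itself a BMP target, read 391 in iNSC_14F, 400.5 in iNSC_13F, 219 in NSC and 993 in MEF. Tob1, an antiproliferative factor that binds SMADs, was highest in iNSC_14F, at 11375 against 4234 in iNSC_13F, 3159 in NSC and 1574 in MEF. Skil, a SMAD corepressor induced by TGF-beta, read 156 in iNSC_14F and 101 in iNSC_13F, against 1014 in NSC and 3572 in MEF. Smurf2, a ubiquitin ligase for SMADs and receptors, read 578 and 289 in the same induced populations, against 1460 in NSC and 1175 in MEF.

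Other genes that respond to BMP in one or another cell type were also mostly highest in MEF. Of the measured ones, 6 of 11 were lower in iNSC_14F than in MEF, 5 of 12 in iNSC_13F and 8 of 11 in NSC, with 0, 1 and 0 higher. Over all genes the shares were 19.0%, 20.9% and 17.5% lower and 18.0%, 15.6% and 19.9% higher. Against NSC, 3 of 7 were higher and 1 lower in iNSC_14F, and 4 of 8 higher and 1 lower in iNSC_13F. Over all genes 16.9% were higher and 19.3% lower in iNSC_14F, and 14.8% and 20.8% in iNSC_13F. Scaled to the controls, 3 of 7 were higher in iNSC_14F and 2 of 7 in iNSC_13F, with 1 lower in each. No share over all genes was counted under that scaling. Prrx2, a homeobox gene of mesenchyme, read 250.2 in iNSC_14F, 173 in iNSC_13F and 55.4 in NSC against 1725 in MEF. Msx1, a homeobox gene and a standard BMP target, was the one higher than in MEF, at 855 in iNSC_13F against 272, with 318 in iNSC_14F and 79.6 in NSC. It was 2.68-fold lower in iNSC_14F than in iNSC_13F. Hey1, a target of Notch and of BMP, read 1412 in iNSC_14F, 588 in iNSC_13F, 230 in NSC and 888 in MEF. Tbx3 was above the floor in MEF alone (686).

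**Figure D4:**
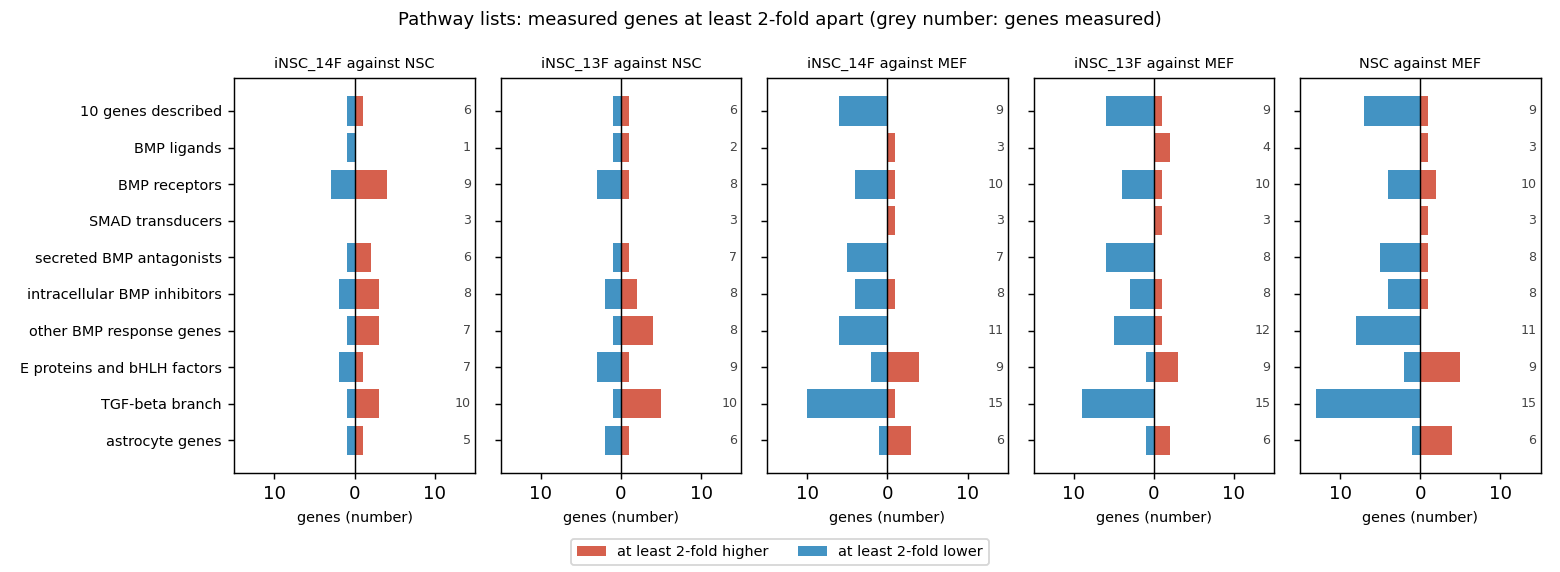
Number of measured genes at least 2-fold higher (right) or lower (left) in each pair of arrays, for the 10 genes and for 9 further lists, with the number measured in grey. In the 3 comparisons with MEF the TGF-beta branch has the most genes measured, 15, and the most lower. These are 10 in iNSC_14F, 9 in iNSC_13F and 13 in NSC, where 19.0%, 20.9% and 17.5% of all genes were lower. The secreted antagonists have 5 of 7, 6 of 8 and 5 of 8 lower.

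The partners of ID proteins were read as well. The E protein genes Tcf4 and Tcf12, named after their values were seen, were highest in NSC. Tcf3, a further E protein gene, was instead higher in the induced cells than in NSC on the deposited scale. It read 2810 in iNSC_14F, 2874 in iNSC_13F, 1817 in NSC and 1313 in MEF. Tcf12 read 3626 in iNSC_14F and 2597 in iNSC_13F, against 10503 in NSC and 3484 in MEF. Tcf4 read 2637 in iNSC_14F and 1655 in iNSC_13F, against 11303 in NSC and 2173 in MEF. The bHLH genes Olig1 and Olig2, of the oligodendrocyte lineage, were at most 8.53 in MEF, while Olig2 read 6424 in iNSC_14F, 8839 in iNSC_13F and 8598 in NSC. Twist1, a bHLH factor of mesenchyme, read 54.7 in iNSC_14F, 1241 in iNSC_13F, 10.8 in NSC and 1638 in MEF. Hes5, a Notch effector, read 1084 in iNSC_14F, 36.6 in iNSC_13F, 209 in NSC and 1.496 in MEF. Its other probe set read 432 in iNSC_14F, 82.4 in iNSC_13F, 258 in NSC and 106 in MEF, so that MEF was just above the floor there.

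Most measured genes of the TGF-beta branch, which uses SMAD2 and SMAD3 and shares Smad4 and Smad7, were also lower outside MEF. Of 15 measured genes, 10 were at least 2-fold lower in iNSC_14F, 9 in iNSC_13F and 13 in NSC (19.0%, 20.9% and 17.5% of all genes), and 1 (Inhbb, 2.08-fold), 0 and 0 were higher (18.0%, 15.6% and 19.9%). Scaled to the controls, 10 were lower and 1 higher in NSC than in MEF. Against NSC, among 10 measured on each induced array, 3 were higher and 1 lower in iNSC_14F, and 5 and 1 in iNSC_13F. Over all genes 16.9% were higher and 19.3% lower in iNSC_14F, and 14.8% and 20.8% in iNSC_13F. Scaled to the controls, 2 of 10 were higher and 2 lower in iNSC_14F, and 1 of 11 higher and 3 lower in iNSC_13F. No share over all genes was counted under that scaling. Ccn2, a matrix-associated growth factor gene induced by TGF-beta, read 24.0 in iNSC_14F, 1070 in iNSC_13F and 33.5 in NSC against 48902 in MEF. Inhba, an activin subunit gene, read 17.0, 43.5 and 33.25 against 5800.3, and Ltbp1 and Ltbp2, which encode binding proteins of latent TGF-beta, were at most 108 in the neural populations against 6710 and 5746 in MEF. The lower signal of Smad7 stood beside lower transcripts of most measured genes of the TGF-beta branch. The BMP branch was mixed, with Bmp7 and Smad5 higher than in MEF by their brightest probe sets. The summed signal of the fibroblast markers was 3957 in iNSC_14F, 2839 in iNSC_13F and 452 in NSC against 191123 in MEF. Whether cell identity accounts for the level of Smad6, Smad7, Id4, Bmp4 or Grem1 was not tested.

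Astrocyte genes, several of which BMP raises in neural progenitors, gave mixed values. Of 6 measured against MEF, 3 were higher by 2-fold or more in iNSC_14F (S100b, Aldoc and Slc1a2), 2 in iNSC_13F (S100b and Aldoc) and 4 in NSC (these 3 and Aldh1l1), with Cd44 lower on each. Of all genes 18.0%, 15.6% and 19.9% were higher and 19.0%, 20.9% and 17.5% lower. Aldoc read 28303 in iNSC_14F, 17206 in iNSC_13F, 4520 in NSC and 147 in MEF, and S100b read 482, 733, 382 and 54.3. Aldh1l1 was highest in NSC, at 144 in iNSC_14F and 135 in iNSC_13F against 489 in NSC and 86.8 in MEF. Gfap, the marker most used for astrocytes and named after its values were seen, was below the floor on the 3 neural arrays and read 109 in MEF.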

How the data were processed

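RNA of 4 mouse samples was measured, with 1 array each. The deposited values are intensities, one linear signal per probe set, which the authors made with MAS5, per the submitters' processing notes. No version or setting was found in the labels. The 2% trimmed mean was 500.0 on each array, so no further scaling was applied.

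Of 45101 probe sets, 64 were controls. Probe sets with 1 gene in the platform annotation (34945) were named, with symbols updated by gene ID through a RefSeq table of GRCm38.p6, which left 932 with several genes and 9160 others unnamed. A gene took its brightest probe set by mean floored log2 signal. The floor was the 95th percentile of 86 chemosensory receptor probe sets on the array where it was highest. A difference was counted from 2-fold up if at least 1 array of the pair exceeded the floor. There was no residual degree of freedom, so no test was run. Precision is limited by 1 array per group and by signal over background.

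The 10 genes and the 9 wider lists (102 genes, 95 with a probe set) were chosen with earlier results of these data known. Named were all members, up to 4 genes of each list by largest difference, and the 3 genes nearest in profile to 7 members. The counting was tested on simulated data with large known folds in genes well above the floor. That simulation did not measure how reliable calls near 2-fold or bounds at the floor are. Python 3.11.15 with pandas 2.3.3 was used.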

Additional observations from a re-analysis of the deposited data

Results flagged for a closer look

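The genes Id2, Hey1 and Hes5 lay on opposite sides of a baseline in the 2 induced populations. None of these differences was tested, since each population has 1 array. Id2 stood out because its log2 difference against NSC was -0.21 in iNSC_14F and 0.59 in iNSC_13F. The other bright probe set of Id2 was lower than NSC on both induced arrays, and the dim one higher on both. With scaling to hybridization controls the brightest probe set gave -1.14 in iNSC_14F and -0.48 in iNSC_13F, on the same side. Hey1 stood out because its log2 difference against MEF was 0.67 in iNSC_14F and -0.59 in iNSC_13F. Hes5 stood out because its log2 difference against NSC was 2.38 in iNSC_14F and -1.01 in iNSC_13F, which is a bound. Both probe sets of Hes5 were at least 2-fold higher in iNSC_14F than in iNSC_13F.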

How the results depend on the processing

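No paired analysis was possible because each group has 1 array. All results below are counts of members at least 2-fold apart or their log2 differences. Shares over all genes were not counted under the alternatives. No difference of at least 2-fold turned its sign under any alternative. Counts that moved by over 1.5 times are given first, against the value as reported. With scaling to hybridization controls, 2 members were higher in NSC than in MEF (1 as reported), 0 in iNSC_13F than in MEF (1), 0 on each induced array than in NSC (1), and 2 lower in iNSC_14F than in NSC (1). With quantile normalization, and with the median of probe sets, 0 were higher in iNSC_13F than in MEF (1). That median gave 2 lower in iNSC_14F than in NSC (1). With a floor at the 75th percentile, and with no floor and a pseudocount of 16, 2 members were higher on each induced array than in NSC (1), and 1 was lower in iNSC_14F than in iNSC_13F (0). Over members above the floor on both arrays, 2 were lower in NSC than in MEF (7), and 3 in iNSC_14F and 3 in iNSC_13F (6 each), because that setting leaves out the bounds. Within 1.5 times, the 7 members lower in NSC than in MEF became 6 with quantile normalization, where Id3 was at -0.96, and 5 with scaling to the controls. The cause of the other moves was not tested. Of the log2 differences of single members, all 46 kept within 0.41 of the reported value under quantile normalization and all 46 without probe sets of the suffix _s_at or _x_at, while 15 of 46 moved further under scaling to the controls, 13 of the 42 measured with the median of probe sets, 12 of the 39 with the floor at the 99th percentile and 11 each with the lower floor and with none. Differences under 2-fold did turn sign: iNSC_13F against NSC was -0.48 for Id2, -0.17 for Id3 and -0.34 for Smad7 with scaling to the controls, and with the median of probe sets Id2 was -0.34 there and -0.36 in iNSC_14F against MEF. For Id2 in iNSC_14F against NSC, the reported -0.21 was -1.14 with scaling to the controls and -1.30 with the median of probe sets.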
